A study of Mus musculus with 36 samples.

Results

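Cdx2, Elf5, Tfap2a, Tfap2c, Gata2, Gata3, Hand1 and Tead4 are 8 transcription factor genes known from the early trophoblast and from the surface ectoderm. They were taken by name from the deposited expression table, and all 8 had a row among its 25965 genes. The table came from RNA-seq of Xmas mESCs, female C57/Bl6 mouse embryonic stem cells derived to carry GFP at Hprt on one of the X chromosomes and mCherry on its partner, and the labels give this cell type for every library without saying whether single cells keep both alleles. Cells were expanded in 2i, the inhibitors that hold the naive state, and weaned into DME HiHi, the serum medium without LIF, for a non-directed differentiation. Libraries were made on each of the 9 days from day 0 to day 8 with 4 libraries per day, 36 in all, and no group received any other treatment. On every day replicate 1 was line X14 with the word double, replicate 2 was X14 single, replicate 3 was X18 double and replicate 4 was X18 single, where the labels do not define double and single and both are used as names only.

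In the mouse blastocyst, the trophectoderm is set apart from the inner cell mass when YAP and its partner TEAD4 switch on Cdx2, with Gata3 acting beside Cdx2. Cdx2, Elf5, Tfap2c and Eomes then keep trophoblast stem cells dividing, and Gata2, Gata3 and Hand1 act in the formation of placental cells such as trophoblast giant cells. Several of these factors are used again in the embryo. TFAP2A and GATA3 work in surface ectoderm and its epidermal descendants, CDX2 in the posterior body and the intestine, HAND1 in lateral and extraembryonic mesoderm, and GATA2 in blood. mESCs held in 2i express few trophoblast genes, although Tfap2c is a known gene of the naive state.

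Values are given as RPM, reads per 1000000 reads of a library, and as RPKM (RPM per kilobase of exon) where genes are compared with each other. A library counted as holding a gene when it had at least 3 reads, a floor worth 1.04 to 3.9 RPM, and intervals and floors cover counting error only. Each library had between 612859 and 2445910 reads in genes, with a median of 1298001. A gene was called when its limma adjusted p (Benjamini-Hochberg over the 14612 genes tested) was under 0.05 and its log2 difference at least 1, and the p-values measure the spread between these libraries, since nothing in the labels says that they came from separately derived cultures beyond line and word. X14 day 0 stood apart: in the other 17 pairs of a line and a day, X-linked genes exceeded autosomal genes in double over single by 0.25 to 1.05 (difference of median log2 values), and in X14 on day 0 the same difference was -1.14, opposite to every other pair, so that the words of these 2 libraries are in doubt. Comparisons of day 4 and day 8 with day 0 are therefore also given without the 2 X14 libraries of day 0, for the members called there. Comparisons of the other days with day 0, and those of the gene lists, are given only with these 2 libraries included. Day 0 was left out of comparisons of double with single. None of the 8 members lies on the X chromosome. Pou5f1, Nanog and Sox2, which define mESCs, were at a mean of 1222.5, 1876 and 346.4 RPM on day 0.

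Promoter sequence was available for 5 of the 8 members in the RefSeq table (GRCm38.p6) and is shown for Gata2, Gata3 and Cdx2, which rose, beside Elf5, which stayed below the floor. Each run is the 250 bases before a RefSeq start, read 5′ to 3′ along the gene, with CpG dinucleotides in capitals. Gata2 is at chr6:88193641-88193890 on the plus strand, Gata3 at chr2:9878601-9878850 on the minus strand, Cdx2 at chr5:147307250-147307499 on the minus strand and Elf5 at chr2:103411848-103412097 on the plus strand.
Gata2: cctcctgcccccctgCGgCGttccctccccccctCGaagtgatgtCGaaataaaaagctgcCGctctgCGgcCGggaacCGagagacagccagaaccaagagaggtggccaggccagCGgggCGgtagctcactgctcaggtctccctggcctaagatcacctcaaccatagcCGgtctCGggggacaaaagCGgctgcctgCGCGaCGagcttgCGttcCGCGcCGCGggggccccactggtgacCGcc
Gata3: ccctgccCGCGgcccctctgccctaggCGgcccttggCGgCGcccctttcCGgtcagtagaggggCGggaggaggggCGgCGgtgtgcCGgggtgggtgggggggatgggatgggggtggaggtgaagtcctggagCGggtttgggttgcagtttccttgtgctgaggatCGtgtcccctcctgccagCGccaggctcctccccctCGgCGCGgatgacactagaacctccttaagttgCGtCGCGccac
Cdx2: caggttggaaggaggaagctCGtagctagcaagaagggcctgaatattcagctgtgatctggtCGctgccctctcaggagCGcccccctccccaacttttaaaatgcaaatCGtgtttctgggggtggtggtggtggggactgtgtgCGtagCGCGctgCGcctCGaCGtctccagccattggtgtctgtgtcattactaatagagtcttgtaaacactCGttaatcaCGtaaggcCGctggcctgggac
Elf5: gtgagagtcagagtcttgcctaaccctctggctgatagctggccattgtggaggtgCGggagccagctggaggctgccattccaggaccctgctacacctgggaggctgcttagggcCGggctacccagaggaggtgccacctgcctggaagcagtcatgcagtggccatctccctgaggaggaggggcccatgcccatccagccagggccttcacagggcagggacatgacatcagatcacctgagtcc
Gata2 held 22 CpG in this window, Gata3 19, Cdx2 13 and Elf5 2, where the median of 32851 promoters was 6. Both windows of Tfap2a, which like Elf5 stayed near or below the floor, held 10 CpG, close to the 13 of Cdx2. Fewer CpG than in the Gata2 window were found in 85.2% of all promoters, and fewer than in the Elf5 window in 18.8%. A second Elf5 start (chr2:103423818-103424067) had 8 CpG and a second Gata2 start (chr6:88198414-88198663) had 24. Of the letters searched on both strands, GCCNNNGGC, bound by AP-2 factors such as TFAP2A and TFAP2C, occurred 3 times in the Gata3 window and 1 time in the Cdx2 window. It also occurred 1 time in the window of the second Gata2 start, and 13.7% of all promoters held it. AGATAA, bound by GATA factors, occurred in none of the 8 member windows and in 9.99% of all promoters. GGAATG, bound by TEAD factors, occurred 1 time in the Elf5 window shown and 1 time in that of the second Gata2 start, against 12.6% of all promoters. TTTATG, bound by CDX factors, occurred 1 time each in windows of the second Elf5 start and of a Tfap2a start (chr13:40734921-40735170), against 10.8%. No matches in these windows shared bases, and a match is a description of the letters only.

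By day 8, Gata2, Gata3, Hand1 and Cdx2 had risen from near or below the floor, Tfap2c and Tead4 had dipped on days 4 and 5 and come back, and Tfap2a and Elf5 stayed near or below the floor throughout. The number of libraries with at least 3 reads was 36 of 36 for Tfap2c, 33 for Tead4, 24 for Gata3, 21 for Gata2, 11 for Hand1, 6 for Cdx2, 3 for Tfap2a and 0 for Elf5. All 4 libraries of a day held the gene on 9 days for Tfap2c, on 7 for Tead4, on 3 each for Gata2 and Gata3, on 2 for Hand1 and on 1 for Cdx2. The limma test ran on 7 members. Elf5 did not pass the filter of at least 1 RPM in at least 4 libraries, and Cdx2, which passed it mainly through days 7 and 8, and Hand1, which passed it through days 4 to 8, had to be higher there.

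**Figure D1:**
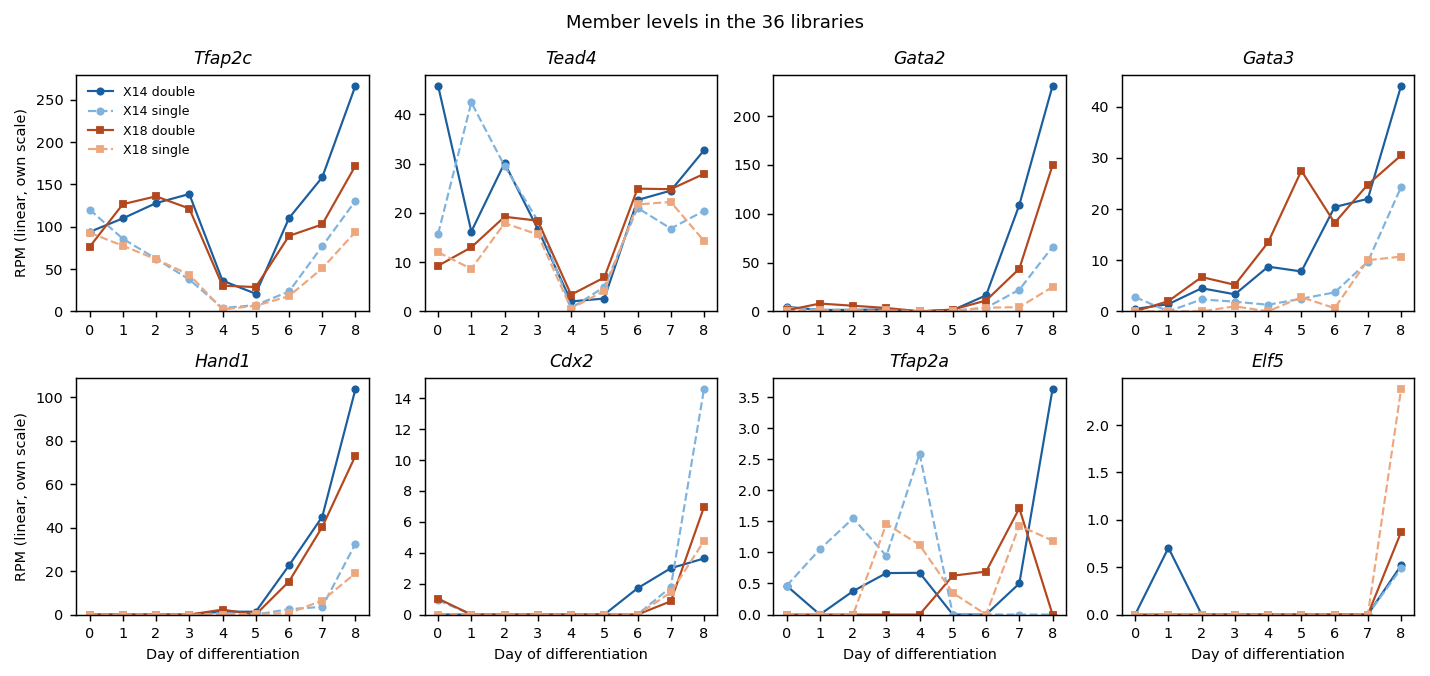
RPM (linear axis, scaled separately in each panel) of the 8 members against day of differentiation, with 1 line per line and word (solid, double; dashed, single). Gata2, Gata3, Hand1 and Cdx2 have their highest values on day 8, while Tfap2c and Tead4 have their lowest on days 4 and 5, and Elf5 stays below 2.5 RPM.

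Tfap2c (chr2:172549593-172558622, plus strand), which encodes the AP-2 gamma factor of trophoblast, germ cells and naive mESCs, was the most abundant member at the outset. On day 0 it stood at 93.9 RPM in X14 double, 120.4 in X14 single, 76.1 in X18 double and 93.0 in X18 single. On day 4 the same cultures gave 36.3, 3.88, 30.4 and 2.24 RPM, and on day 8 they gave 266.8, 130.7, 172.3 and 94.0 RPM. All 4 libraries of day 4 lay below all 4 of day 0, and days 8 and 0 overlapped. The fall on day 4 was -3.26 ± 0.66 on the log2 scale (SE, n = 4 per day; limma adjusted p = 3.6e-04) and the fall on day 5 was -2.85 ± 0.66 (adjusted p = 9.12e-04). From day 4 to day 8 Tfap2c rose by 3.96 ± 0.66 (adjusted p = 1.66e-05), in 4 of 4 cultures. Day 8 against day 0 gave 0.70 ± 0.66 (adjusted p = 0.398), which was not called.

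Tead4 (chr6:128224288-128300823, minus strand), the TEAD factor needed for trophectoderm, followed a similar course at a lower level. Its day 0 values were uneven, at 45.8, 15.7, 9.25 and 12 RPM in replicates 1 to 4. On day 4 it was at 2.02, 0.647, 3.38 and 0.561 RPM, with 3 or more reads in only 2 of the 4 libraries, and on day 8 at 32.7, 20.4, 27.9 and 14.3 RPM. Day 4 lay wholly below day 0 and day 8 wholly above day 4. The log2 difference was -3.74 ± 0.48 for day 4 (limma adjusted p = 3.85e-07) and -1.94 ± 0.48 for day 5 (adjusted p = 1.89e-03). By day 6 it was 0.42 ± 0.48 and not called (adjusted p = 0.498). Between day 4 and day 8 Tead4 rose by 4.18 ± 0.48 (adjusted p = 3.05e-08). Day 8 against day 0 gave 0.43 ± 0.48 (adjusted p = 0.484), and this difference was -0.06 after quantile normalization, so no direction is given for it.

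On day 4 against day 0, 2 of the 7 members tested were called, both lower, where 6.4% of all genes tested were called lower and 18.6% were called either way. Without the X14 libraries of day 0, the fall on day 4 was -3.09 for Tfap2c and -3.07 for Tead4, and both were still called. Gata2, which had 10, 8, 1 and 0 reads on day 0 and no read in any library of day 4, gave -1.81 ± 0.84 (limma adjusted p = 0.112). With the replicate number as a block Gata2 was also called on day 4 (adjusted p = 0.0279), and without the X14 libraries of day 0 its difference was -0.70 (adjusted p = 0.62).

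Gata2 (chr6:88193891-88207030, plus strand), a zinc finger factor of trophoblast and of blood progenitors, had the largest count of reads on day 8 among the members that rose. It was at 4.63, 3.70, 1.03 and 0 RPM on day 0 and at 0 RPM in all 4 libraries of day 4. It then reached 16.4, 3.70, 11.1 and 3.72 RPM on day 6, 109.0, 22.1, 43.7 and 4.30 on day 7, and 231.0, 66.1, 149.7 and 25.0 on day 8. Every library of day 8 was above every library of days 0 and 4. The rise over day 0 was first called on day 7 (log2 difference 3.76 ± 0.84, limma adjusted p = 4.72e-04) and reached 5.50 ± 0.84 on day 8 (adjusted p = 2.45e-06). Against the floor of 3 reads per library on day 4, the day 8 mean of 117.9 RPM was at least 64.4-fold higher. Without X14 double the day 8 mean was 80.3 RPM, at least 43.8-fold above that floor.

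Gata3 (chr2:9857078-9890034, minus strand), which acts beside Cdx2 in the trophectoderm and later in skin and T cells, was the first member to be called higher than on day 0. Its reads were 1, 6, 0 and 0 on day 0 and 12, 3, 7 and 0 on day 2. On day 4 it was at 8.74, 1.29, 13.5 and 0 RPM, on day 5 at 7.80, 2.47, 27.5 and 2.78, and on day 8 at 44.1, 24.3, 30.5 and 10.7. X18 double held the highest value on days 4 and 5 and X14 double on day 8, and day 4 and day 8 overlapped. The rise over day 0 was first called on day 5 (log2 difference 2.66 ± 0.95, limma adjusted p = 0.0277), and it was called again on day 6 (2.45 ± 0.95, adjusted p = 0.0361) and day 7 (3.96 ± 0.95, adjusted p = 1.01e-03). On day 8 it was 4.64 ± 0.95 (adjusted p = 1.69e-04). From day 4 to day 8 Gata3 rose by 3.04 ± 0.95 (adjusted p = 0.0134), a call that was lost without replicate 2 (2.64, adjusted p = 0.102).

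Hand1 (chr11:57828705-57832818, minus strand), a basic helix-loop-helix factor of trophoblast giant cells and of mesoderm, had no read in any library from day 0 to day 3. On day 4 it had 2, 1, 4 and 0 reads, and on day 5 it had 1, 0, 0 and 1. It was at 22.6, 2.47, 15.2 and 0.620 RPM on day 6, at 45.0, 3.54, 40.3 and 6.45 on day 7, and at 103.8, 32.6, 73.1 and 19.0 on day 8. The first call against day 0 was on day 6 (limma adjusted p = 2.90e-03), when the mean of 10.2 RPM was at least 4.86-fold above the floor of 3 reads per day 0 library. Both single libraries of day 6 were below the floor, with 2 and 1 reads, and without X14 double the day 6 mean was 6.1 RPM, at least 2.9-fold above the floor. On day 8 the mean was 57.1 ± 38.7 RPM (SD, n = 4), at least 27.1-fold above that floor (adjusted p = 9.55e-08), and day 8 exceeded day 4 in 4 of 4 cultures (adjusted p = 1.96e-06). Without X14 double the day 8 mean was 41.6 RPM, at least 19.7-fold above the floor of day 0.

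Cdx2 (chr5:147300805-147307270, minus strand), the homeobox factor that defines the trophectoderm, was the last of the rising members to be called. It had 0, 2, 1 and 0 reads on day 0, none from day 1 to day 5, 3, 0, 0 and 0 on day 6, and 6, 2, 1 and 2 on day 7. On day 8 it had 7, 30, 8 and 4 reads, or 3.63, 14.6, 6.96 and 4.76 RPM. All 4 libraries of day 8 were above the floor and above every library of day 0. X14 single, which was below X14 double for Gata2, Gata3 and Hand1, was the highest here. The ratio of the summed reads of day 8 (49) and day 0 (3), each over its libraries' totals, was 17.7, with an exact 95% counting interval of 5.7 to 88.7. X14 single gave 30 of the 49 reads, and without this library the ratio was 10.5 (3.08 to 55.2). The limma adjusted p was 2.03e-06 for day 8 against day 0, and day 7 was not called (adjusted p = 0.0539).

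Tfap2a (chr13:40715675-40733823, minus strand), the AP-2 alpha factor of surface ectoderm and neural crest, had 36 reads in all libraries together. Its highest count was 7 reads (3.63 RPM) in X14 double on day 8, when the other 3 libraries had 0, 0 and 1 read. Day 8 against day 0 gave a log2 difference of 0.82 ± 0.56 (limma adjusted p = 0.234), so no change was detectable at this depth. Elf5 (chr2:103411688-103450989, plus strand), the ETS factor that marks the trophoblast stem cell state, had 6 reads in all. These were 1 read in X14 double on day 1 and 1, 1, 1 and 2 reads on day 8. No library reached the floor, so its level is limited only to below 1.04 to 3.9 RPM.

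On day 8 against day 0, 4 of the 7 members tested were called, all higher, where 23.9% of all genes tested were called higher and 35.0% either way. Hand1 and Cdx2 passed the filter mainly through late libraries and had to be higher there, so their calls add nothing beside this share. Without the X14 libraries of day 0 the same 4 were called, with log2 differences of 6.61 for Gata2, 4.85 for Gata3 and 2.86 for Cdx2 and an adjusted p of 1.9e-05 for Hand1. The members called on the days between were none on day 1 (0.0684% of genes called, 775 genes at an unadjusted p under 0.05), none on day 2 (2.96%, 3504 genes) and none on day 3 (8.89%, 4248 genes). On day 5 they were Tfap2c, Tead4 and Gata3 (26.8%), on day 6 Gata3 and Hand1 (33.4%), and on day 7 Gata2, Gata3 and Hand1 (35.4%). On day 8 against day 4, 6 of 7 were called higher, against 15.7% of all genes, with Tfap2a the exception (log2 difference 0.15 ± 0.56). The same limit of the filter holds there for Hand1 and Cdx2. The median log2 difference of all genes tested was 0.23 on day 8 against day 0, and 0.02 after scaling to the 75th percentile, so the rises of Gata2, Gata3, Hand1 and Cdx2 were far above this common shift.

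**Figure D2:**
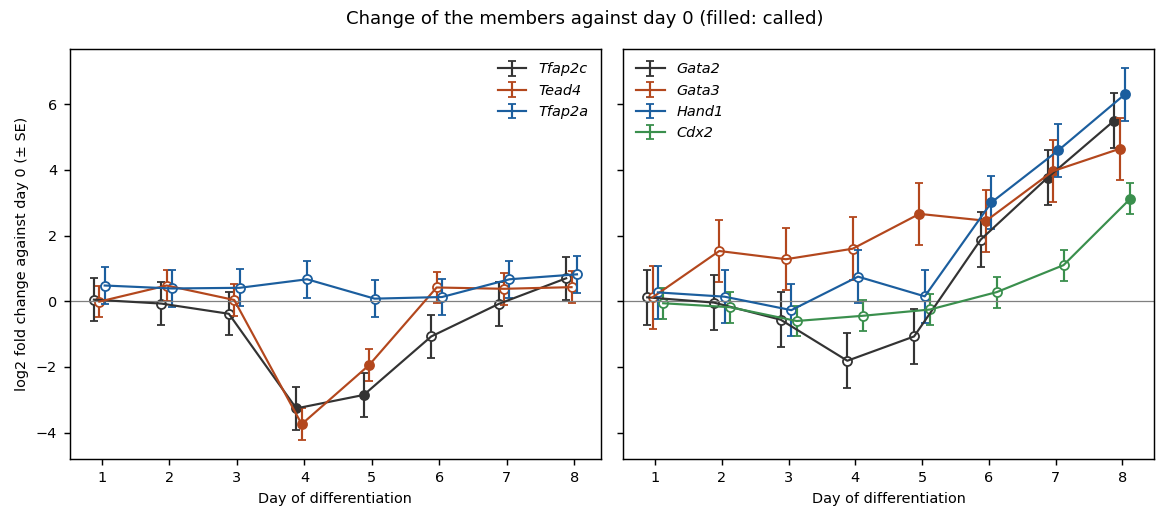
log2 fold change against day 0 (limma, ± SE, n = 4 libraries per day) for the 7 members tested, with filled points where the member was called. Tfap2c and Tead4 are called lower on days 4 and 5 (left), and Gata3 is called from day 5, Hand1 from day 6, Gata2 from day 7 and Cdx2 on day 8 (right); libraries without reads enter as 0.9 read, so points for Hand1 and Cdx2 depend on that rule.

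Per kilobase of exon, the order on day 0 was Tfap2c (26.1 ± 4.98 RPKM, SD, n = 4), Tead4 (5.75 ± 4.72) and then Gata2 (0.698 ± 0.651), with the others below 0.25. On day 8 the order was Tfap2c (45.1 ± 20.2 RPKM), Gata2 (35.2 ± 27.3), Hand1 (28.6 ± 19.4), Gata3 (6.89 ± 3.49), Tead4 (6.62 ± 2.26), Cdx2 (3.31 ± 2.18), Tfap2a (0.372 ± 0.528) and Elf5 (0.181 ± 0.152). Between neighbours in the order of day 8 the library values overlapped, except between Cdx2 and Tfap2a, whereas on day 0 Tfap2c lay wholly above Tead4 and Tead4 wholly above Gata2. In bulk RNA, fewer cells of a type and less RNA per cell cannot be told apart.

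The 4 cultures allowed the members to be followed by word and by line. Over days 1 to 8, 4 of the 7 members tested were called higher in double than in single, where 2.93% of all genes were. These were Gata3 (log2 difference 2.14 ± 0.30, limma adjusted p = 3.47e-06), Gata2 (1.65 ± 0.30, adjusted p = 1.46e-04), Tfap2c (1.61 ± 0.18, adjusted p = 1.43e-07) and Hand1 (1.40 ± 0.33, adjusted p = 2.70e-03). Tead4 gave 0.38 ± 0.22 (adjusted p = 0.22), Cdx2 0.05 ± 0.24 and Tfap2a -0.33 ± 0.29, none of which was called. Each word stands for 2 cultures, so the libraries of a culture on different days are not independent. With the culture as a random effect the same 4 members were called, at smaller limma adjusted p (Hand1 7.11e-04, Tfap2c 1.29e-08). That fit did not widen the spread for shared cultures. With 2 cultures per word it cannot show that the calls hold between cultures.

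Tfap2c and Gata3 were higher in double on 8 of 8 days in both lines. For Tfap2c the log2 difference in X14 grew from 0.36 on day 1 to 3.22 on day 4 and was 1.03 on day 8, and in X18 it was 0.71, 3.76 and 0.87 on these days. Thus the dip on day 4 was deeper in single, with 3.88 and 2.24 RPM, than in double, with 36.3 and 30.4 RPM. The single values rest on 6 and 4 reads, near the floor, and the double values on 54 and 54, so the size of the day 4 difference is uncertain. On day 0 it was -0.36 in X14 and -0.29 in X18, so that single was the higher there in both lines, with the words of X14 in doubt. For Gata3 the mean log2 difference over days 5 to 8 was 1.54 in X14 and 2.73 in X18. Gata2 was higher in double on 5 of 8 days in X14 and on 7 of 8 in X18, and on days 6 to 8 in both lines, with values on day 8 of 231.0 against 66.1 RPM in X14 and 149.7 against 25.0 in X18. Hand1 was higher in double on days 6, 7 and 8 in both lines, for example 45.0 against 3.54 RPM in X14 and 40.3 against 6.45 in X18 on day 7. Cdx2 showed no common order on day 8, with 3.63 against 14.6 RPM in X14 and 6.96 against 4.76 in X18.

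Within X14 alone 2 members were called (Gata3, 1.53, adjusted p = 0.0105; Tfap2c, 1.54, adjusted p = 2.04e-03), and within X18 alone 3 were (Gata3, 2.75, adjusted p = 3.09e-03; Gata2, 2.17, adjusted p = 3.09e-03; Tfap2c, 1.68, adjusted p = 3.92e-03). Hand1 was not called within either line (1.29, adjusted p = 0.0985 in X14; 1.52, adjusted p = 0.0732 in X18), and its call over both lines was lost without replicate 2 (adjusted p = 0.0835) or replicate 3 (adjusted p = 0.108). That of Gata2 was lost without replicate 3 (adjusted p = 0.0878) or replicate 4 (adjusted p = 0.0522). The difference of double from single was larger on days 5 to 8 than on days 1 to 4 for 1 member, Hand1 (log2 interaction 2.01 ± 0.46, limma adjusted p = 8.60e-03), where 2.95% of all genes were called in this direction. Hand1 had no read on days 1 to 3 in any library, so this interaction is measured against the value written for no reads, and the call was lost without replicate 1 (1.41, adjusted p = 0.305) or replicate 4 (1.5, adjusted p = 0.172). For Gata2 the interaction was 0.92 ± 0.59 (adjusted p = 0.42).

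Summed levels of marker lists were read beside these differences, with no test of the sums. The summed RPM of 14 trophoblast stem and progenitor genes on day 8 was 6029.5 in X14 double against 3278.7 in X14 single and 7825.3 against 3524.8 in X18, and 3 of the 14 genes are X-linked. A few genes carried each sum. Here Krt18, Krt8 and Krt19 had the largest day 8 means (1742, 1226 and 545.7 RPM). Their log2 differences between the words over days 1 to 8 were -0.08, -0.17 and 0.36, none called. Of the 14 genes, 4 were called higher in double and 0 lower. The surface ectoderm and epidermis sum was also higher in double on day 8, at 922.5 against 643.8 in X14 and 686.7 against 435.4 in X18. The endoderm sum of day 8 was lower in double, at 31.1 against 75.3 in X14 and 29.6 against 36.9 in X18. Dab2 alone had a day 8 mean of 30.1 RPM, so this sum rests mostly on 1 gene. The sum of 11 mesoderm genes on day 8 was 62.8 in double against 229.8 in single in X14 and 49.6 against 111.8 in X18, and no mesoderm gene was called between the words over days 1 to 8. T alone had a day 8 mean of 75.5 RPM, so the mesoderm sum also rests mostly on 1 gene. The sum of 8 pluripotency genes was 409.1 against 588.9 and 370.8 against 723.3 on day 8. It was higher in double on each of days 1 to 5 in both lines, for example 3495.3 against 2355.5 in X14 and 3667.2 against 2495.8 in X18 on day 3, and over days 1 to 8 2 of these genes were called higher in double and 0 lower. The Hippo pathway sums of day 8 were close, at 1970.7 against 1802.6 and 1436.1 against 1324.0. The part of these differences, or of the X-linked balance, in the members' values was not tested. Median reads in genes were 1298001 in double and 1276583 in single.

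X14 and X18 gave no call for any member over days 1 to 8 (0.0137% of genes called, 1552 of 14612 at an unadjusted p under 0.05), with differences from 0.08 to 0.31 on the log2 scale. For the change of the line difference between days 1 to 4 and days 5 to 8 no gene was called (0.0% called, 700 genes at an unadjusted p under 0.05 in limma). The members' own values were wider here, at 1.45 ± 0.56 for Gata2, 1.27 ± 0.43 for Cdx2 and 1.11 ± 0.70 for Hand1 (X14 over X18, limma adjusted p = 0.98 for each).

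**Figure D3:**
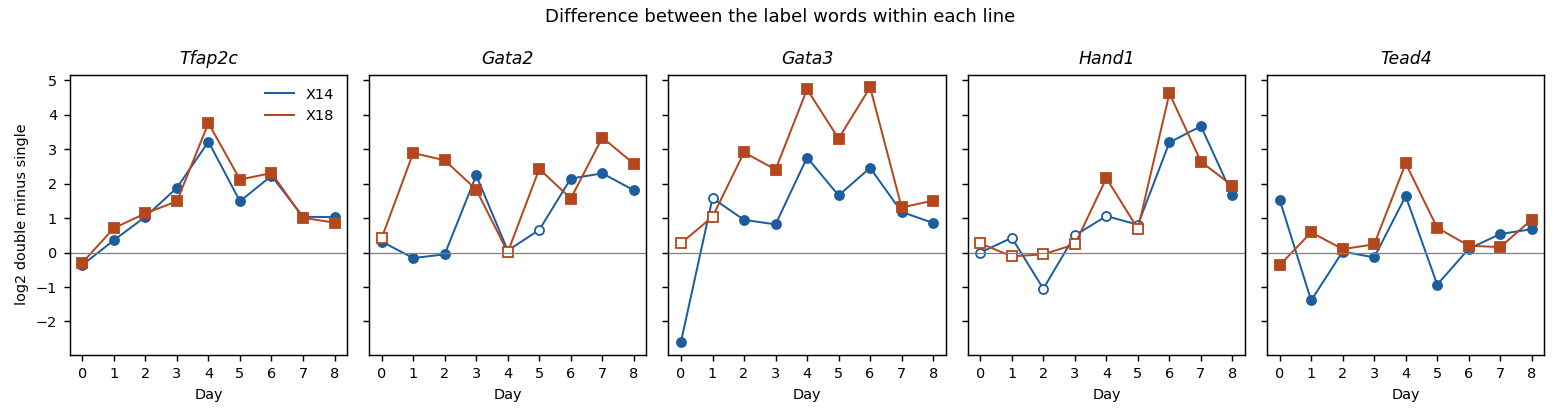
log2 difference of double minus single within line X14 (circles) and X18 (squares) on each day for Tfap2c, Gata2, Gata3, Hand1 and Tead4, with open points where neither library had 3 reads. Tfap2c peaks on day 4 in both lines (3.22 and 3.76), Hand1 stands above 1.6 from day 6 to day 8, and a library without reads enters as 0.9 read.

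Other genes of the same families were read beside the members. Of 15 paralogues, 9 were tested and 3 called on day 8 against day 0 (2 higher and 1 lower), a share near the 35.0% of all genes called either way. Tead3 rose by 5.52 ± 0.62 on the log2 scale (1.14 to 68.6 RPM, limma adjusted p = 8.18e-09) and Tead1 by 1.34 ± 0.44 (87.7 to 193.9 RPM, adjusted p = 0.0129), so these relatives of Tead4 were higher at the end. Cdx1 fell by 2.94 ± 0.58 (25.2 to 3.06 RPM, adjusted p = 1.09e-04), opposite to Cdx2. Tfap2b, Tfap2d and Hand2 had no read in any library. The median log2 difference of the 9 was 0.70, beside 0.23 over all genes.

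Of 14 trophoblast stem and progenitor genes, all tested, 11 were called higher and 2 lower on day 8, with a median log2 difference of 5.05. Of all genes tested, 23.9% were called higher. List genes almost without reads on day 0, such as Krt19 with 6, passed the filter mainly through later libraries. They had to be higher there, so their calls add nothing beside this share. The largest rises were those of the simple epithelial keratins, which other epithelia and extraembryonic endoderm also make. Krt8 went from 2.11 ± 2.19 to 1226 ± 357.9 RPM (SD, n = 4; adjusted p = 5.14e-15), Krt18 from 2.66 ± 1.05 to 1742 ± 724.6 (adjusted p = 9.36e-18) and Krt19 from 0.694 ± 0.886 to 545.7 ± 160.2 (adjusted p = 1.47e-16). Esrrb fell by 4.10 ± 0.45 (adjusted p = 4.63e-09) and Klf5 by 1.45 ± 0.49 (adjusted p = 0.015), and both are also genes of the naive state. Eomes, the T-box factor of trophoblast stem cells and mesendoderm, was not called (1.35 ± 0.75, adjusted p = 0.141). Of 9 genes of differentiated trophoblast only Gcm1 and Syna, both of syncytiotrophoblast, could be tested, at 6.48 and 6.16 RPM on day 8. Both were called higher, but with 0 and 1 reads on day 0 they passed the filter through later libraries and had to be higher there. Synb, Tpbpa, Prl3d1, Prl3b1, Prl2c2, Ctsq and Ctsj had no read in any library.

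Of 14 genes of surface ectoderm and epidermis, 10 were tested, 7 called higher and 0 lower, with a median of 3.0, beside 23.9% of all genes called higher. The filter left out genes near zero throughout and kept genes present only late. Msx2, with 2 reads on day 0, had to be higher late, so its call adds nothing beside this share. Dlx3, a homeobox gene of epidermis and placenta, rose by 5.81 ± 0.64 (adjusted p = 5.56e-09) to 67.1 RPM, Msx2 by 5.57 ± 0.70 (adjusted p = 6.46e-08) to 39.7 and Dsp, which encodes desmoplakin, by 5.50 ± 0.76 (adjusted p = 4.24e-07) to 275.3. The defining epidermal genes stayed near zero, with 12 reads in all libraries for Trp63, 3 for Krt5 and 9 for Krt14, and none for Dlx5. Of 14 Hippo pathway genes, which act upstream or downstream of TEAD factors, 12 were called higher and 0 lower, with a median of 1.69. The share of all genes is again 23.9%, and the smallest of these called rises was 1.02, close to the limit of 1. Amot rose by 6.26 ± 0.53 (adjusted p = 2.22e-11), Vgll4 by 3.62 ± 0.44 (adjusted p = 4.68e-08) and Amotl2 by 3.40 ± 0.29 (adjusted p = 1.67e-11).

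Lists of other cell types were counted in the same way, beside 23.9% of all genes called higher. Of 8 mesoderm genes tested 3 were called higher and 5 were not called (median 1.25), led by T, the Brachyury gene, at 0.463 ± 0.534 RPM on day 0 and 75.5 ± 75.1 on day 8 (adjusted p = 2.38e-09), and by Bmp4, at 20.7 ± 3.51 RPM on day 8 (adjusted p = 5.45e-09). Of 6 endoderm genes 2 were called higher and 4 were not called (median 0.83), with Dab2 at 30.1 ± 11.8 RPM (adjusted p = 2.34e-08) and no read for Ttr. T, Bmp4 and Dab2 had 4, 2 and 3 reads on day 0 and passed the filter mainly through later libraries. They had to be higher there, so their calls add nothing beside the share of all genes. All 8 pluripotency genes were called lower (median -3.05), with Prdm14 at -5.15 ± 0.74 (adjusted p = 8.99e-07), Nanog at -3.82 ± 0.46 (adjusted p = 2.93e-08) and Klf4 at -3.28 ± 0.61 (adjusted p = 4.28e-05).

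**Figure D4:**
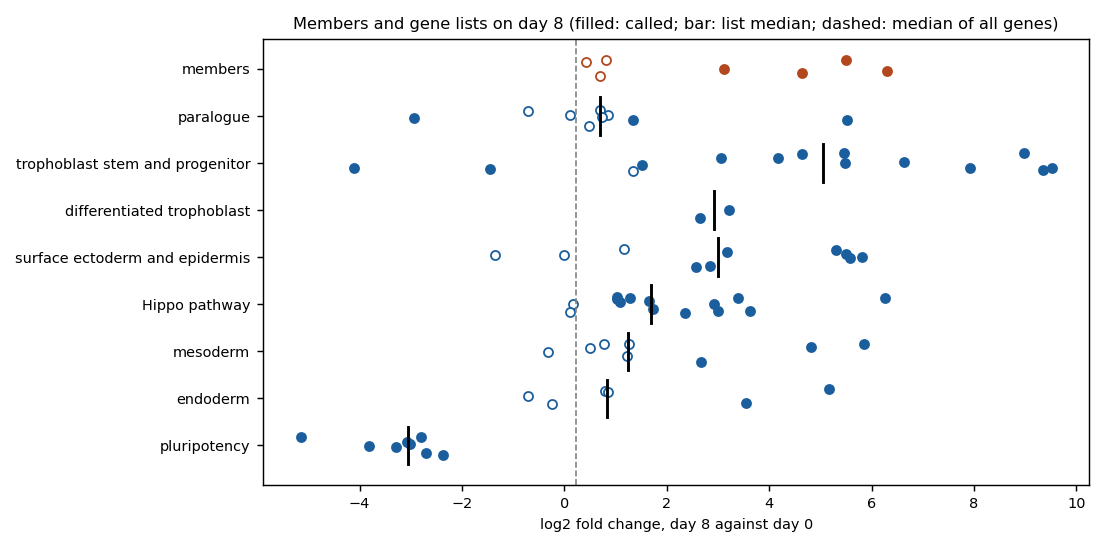
log2 fold change of day 8 against day 0 for each tested member (top) and each tested gene of 8 lists, filled where called, with a bar at the list median and a dashed line at the median of all genes (0.23). Trophoblast stem and progenitor genes lie furthest to the right (median 5.05), pluripotency genes furthest to the left (median -3.05), and 4 of the 7 members lie at 3.12 or above.

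The genes most like each member over the 36 libraries were found by Pearson r of log2 values among genes of at least 10 RPM on at least one day, as a description of libraries that share days and cultures. Hand1 was closest to Vgll1 (r = 0.969), Plac1 (0.964) and Epn3 (0.961), and Gata2 to Rell1 (0.916), Nxf7 (0.915) and Plac1 (0.915), so that the placental gene Plac1 stood on both lists. For Tfap2c, Gjb5 (0.891) and Ksr1 (0.889) were among the closest, and Gata3 was closest to Pja1 (0.894), Pink1 (0.865) and Lamp1 (0.863). Vgll1, Plac1, Nxf7 and Pja1 are X-linked, and X-linked genes differed between double and single. The part of this difference in their r with Hand1, Gata2 and Gata3 was not tested. Cdx2 was closest to Isg15 (0.944), Dkk1 (0.927) and Col1a2 (0.918), which like Cdx2 were almost without reads until late. Tead4 was closest to Rusc2 (0.826), Zfp704 (0.820) and Kirrel (0.819), and Tfap2a, at its low counts, had no gene above 0.472 (Tmem186, then Gm16517 at 0.425 and 1700021F05Rik at 0.414). Among the members themselves the highest r were those of Gata2 with Hand1 (0.86), Cdx2 with Hand1 (0.81), and Cdx2 with Gata2 and Tfap2c with Tead4 (both 0.79), and the lowest were those of Tfap2a with Tead4 (-0.13) and with Tfap2c (-0.11). Cdx2 had no read in 25 of the 36 libraries and Hand1 in 19. These libraries enter as 0.9 read, so the r of both genes rest in part on that value and on depth.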

How the data were processed

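Per the labels and the methods of the study, 75-base single-end reads were processed with bcl2fastq and TopHat2 2.0.12 (mm10) and quantified in SeqMonk; the annotation and the strand setting are not given in the sources used here. The values deposited by the authors are log2 RPKM, with a gene without reads written as 0.9 read. All 36 value columns were mapped, and 100% of values resolved to whole reads (within 0.05 read), which gave RPM, floors and depth. The same merged exon length was found for 50.8% of 22710 genes matched to GENCODE M21. Gata3 and Tfap2a share exon bases with other annotated genes, and reads could be shared with these. Tead4 overlaps a processed pseudogene, Gm21893, with 0 shared exon bases. Of Gata3's 3 overlapping genes one had 4 reads in all and the others 0.

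The members, lists and tests were chosen with earlier results of these data known. limma 3.58.1 (R 4.3.3; lmFit, eBayes with trend) was fitted to the deposited log2 values of all 36 libraries with day as factor, for genes of at least 1 RPM in at least 4 libraries. Double against single and X14 against X18 were fitted on the 32 libraries of days 1 to 8 with day, line and label, and stage by interaction. The fits were tested on simulated data. From each list, up to 3 called rises and 3 called falls of at least 10 RPM on the higher day were named, with genes without reads; Eomes, Gcm1, Syna, Trp63, Krt5 and Krt14, and the pluripotency genes Pou5f1 and Sox2, were named after their values were seen. For each member the 3 genes most like it were named, except 1 that is not reported here. The same replicate number stands for the same line and word on every day, so the numbers pair the libraries; of 144 same-numbered comparisons of deviations from the day means, 91 had r above 0.1 (median 0.146). The lowest chi-squared per gene between libraries of a day was 1.24, so none was a copy of another. Alternatives covered filters, scaling, pseudocount, voom on recovered reads, the block, and left-out libraries.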

Additional observations from a re-analysis of the deposited data

Results flagged for a closer look

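In 3 of 44 sets of 4 libraries (one member on one day with at least 1 library at the floor), a single library stood apart by Dixon's test at the 95% level. Chance alone flags about 1 of 20 sets of normal values, and this rate need not hold for counts near 0. Cdx2 on day 6 was at 1.70 RPM in X14 double and at 0 in the other 3, a set that the test flags at any value above 0. Gata2 on day 1 was at 7.98 RPM in X18 double and between 1.08 and 1.57 in the other 3. Gata3 on day 0 was at 2.78 RPM in X14 single and between 0 and 0.463 in the other 3, in a pair of libraries whose X-linked balance is opposite to that of all other pairs. These values rest on 3, 8 and 6 reads.

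The difference of double from single in Hand1 was larger on days 5 to 8 than on days 1 to 4, with a log2 interaction of 2.01 by limma's test of the difference itself. Hand1 had no read on days 1 to 3 and at most 4 reads on day 4 in any library, so the early differences are set by the value written for no reads and by depth, and the interaction is measured against that floor. It was lost without replicate 1 or replicate 4.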

How the results depend on the processing

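The count of members called was within 1.5 times its value in most alternatives run. For double against single it was 4, with 2 within X14 alone and from 2 to 4 when one replicate was left out. For the label by stage interaction it was 1, and 0 to 1 when one replicate was left out. On day 8 against day 0 it stayed at 4 except under a mean of at least 10 RPM on the highest day, where 3 were called because Cdx2 was not tested. The difference of Tead4 on day 8 against day 0 turned to -0.06 with quantile normalization. With the replicate block Gata2 on day 4 was called, which made 3 members in place of 2, and the block changed no other call of a member on day 4, on day 8 or in double against single. Fits within one line, the alternatives for the interactions and the ratios without one library were added after seeing the data. On days 1 to 4 alone Hand1 was not called in double against single (0.40) and Tfap2a was, lower in double, on at most 4 reads per library. Of the single-gene differences named, 288 kept direction and call, 11 lost the call, 1 gained it and 1 reversed. With a floor of 1 read in place of 3, Cdx2 was held by 11 libraries, Elf5 by 5, Tfap2a by 19 and Hand1 by 17; with 5 reads, Tfap2a by 1. Depth limits Cdx2, Elf5 and Tfap2a most, as 3 reads are worth 1.04 to 3.9 RPM.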
